A study of Rattus norvegicus with 8 samples.

Results

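Neurexins and neuroligins were read out in the hypothalamus through the 3′ ends of their RNAs. The genes analysed were the neurexins Nrxn2 and Nrxn3 and the neuroligins Nlgn1, Nlgn2 and Nlgn3. Every alternative polyadenylation (APA) site whose gene symbol was one of these names was taken, which gave 247 of the 98356 sites in the files, and 5 of the 18003 gene symbols. RNA from the mediobasal hypothalamus of adult male Long-Evans rats was sequenced by whole transcriptome termini site sequencing (WTTS-Seq). In this method reads mark the 3′ ends of polyadenylated RNAs. RNA fragments were captured by oligo(T), and whether each site is a true RNA end was not tested. Of the 8 rats, 4 had breathed vaporized cannabis and 4 had breathed air in the same type of chamber, for 10 min, and tissue was collected 1 hr after exposure. The air-treated controls are numbered 1, 2, 3 and 4 and the cannabis-exposed rats 1, 2, 3 and 5, with 1 library per rat. P-values measure the spread between these rats. Those of limma, and its intervals, also draw on the spread of the other features tested.

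Neurexins are presynaptic adhesion proteins, and neuroligins are their postsynaptic partners. They meet across the synaptic cleft, where they help to organize the release machinery on one side and the receptors on the other. In textbook accounts Nlgn1 is found mainly at excitatory synapses, Nlgn2 mainly at inhibitory synapses, and Nlgn3 at both. Neurexin genes produce long and short protein forms from separate promoters and are heavily spliced. WTTS-Seq does not see those splice choices, since it is designed to read only where an RNA ends.

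The libraries held 1159811 to 3706778 reads on sites, of which the 5 genes took 929 to 3235 reads, or 0.0801% to 0.0989%. Air-treated control 4 was the least deeply sequenced. Levels are given as normalized counts, that is, reads over the size factor of their library, so that 1 read was worth 0.664 to 1.99 normalized counts. Within a group, log levels correlated with r between 0.726 and 0.865 for pairs of controls and between 0.734 and 0.836 for pairs of cannabis-exposed rats, over 22164 sites with a mean of at least 10. Summed neuron markers were 2161 to 2447 normalized counts in the controls and 2184 to 2571 in the cannabis-exposed rats, and of the 5 markers Eno2 was at 0 in at least 1 library. Sums for astrocytes (2689 to 3548 against 2791 to 4352), oligodendrocytes (39030 to 53037 against 32377 to 48889) and microglia (314 to 483 against 310.0 to 560.1) also overlapped between groups, with all 5 markers of each list found and none called. The 6 hypothalamic neuropeptide genes summed to 2571 to 4912 in the controls and 6604 to 8705 in the cannabis-exposed rats, without overlap. Of these genes 2 were called, Avp and Oxt. A sum follows its highest genes, so it does not show that the rest of the list rose. The 3 thalamic markers summed to 154 to 185 against 187 to 213, also without overlap and with 0 called. Of 4 choroid plexus markers 3 were found (11.9 to 26.3 against 12.4 to 37.9, Kl not found, Ttr and Folr1 at 0 in at least 1 library), and of 4 pituitary markers 2 were found (20.8 to 132.9 against 13.8 to 102.3, Gh1 and Prl not found). The part of these differences in the results for the 5 genes was not tested. In bulk tissue, fewer cells of a type and less RNA per cell cannot be told apart.

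The 5 genes differed widely in how many sites carried their symbol. Nrxn3 had 133 sites, placing it at rank 2 of all gene symbols by number of sites, and Nlgn1 had 90 sites, at rank 12. Nrxn2 had 11 sites, Nlgn3 had 7 and Nlgn2 had 6. The median gene symbol had 2 sites and the 90th percentile was 7, so that even Nlgn2 had more sites than 84.4% of gene symbols. Because the files name sites only by gene symbol, sites are numbered here within each gene by their mean normalized count over the 8 libraries.

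Most of these sites were low. Only 46 of the 247 reached a mean of 10 normalized counts, and they fell 24 to Nrxn3, 15 to Nlgn1, 3 to Nlgn3, 2 to Nrxn2 and 2 to Nlgn2. Those sites held 87.4% of the Nrxn2 total and 87.5% of the Nlgn2 total, but 60.9% of the Nrxn3 total and 44.4% of the Nlgn1 total. Most of the Nlgn1 signal therefore lay on sites with a mean under 10. The median Nlgn1 site had 35.5 reads over all 8 libraries, and the median Nrxn3 site had 31 reads. The authors kept sites with at least 16 reads.

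The spread of a gene over its sites was summarized as an effective number of sites, the inverse of the sum of squared shares. For a site with k of the n reads of its gene, k(k - 1)/(n(n - 1)) stood in place of the squared share, a correction for few reads. The value is 1 when a single site carries the whole gene. Nrxn2 and Nlgn2 were close to that end, with medians of 1.49 (1.27 to 1.89 over the 8 libraries) and 1.69 (1.40 to 2.10). Nlgn3 was intermediate, at 3.38 (2.45 to 4.39). Nrxn3 had a median of 31.2 effective sites (24.5 to 43.6) and Nlgn1 had 44.7 (27.8 to 50.6). Among 5156 gene symbols with 2 or more sites and at least 20 reads in every library, whose median was 1.82, the value of Nlgn1 was above 99.96% of genes, that of Nrxn3 above 99.8%, that of Nlgn3 above 78.5%, that of Nlgn2 above 46.7% and that of Nrxn2 above 39.4%. The pair of genes with scattered ends was thus 1 neurexin and 1 neuroligin, and so was the pair with a single dominant end.

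**Figure D1:**
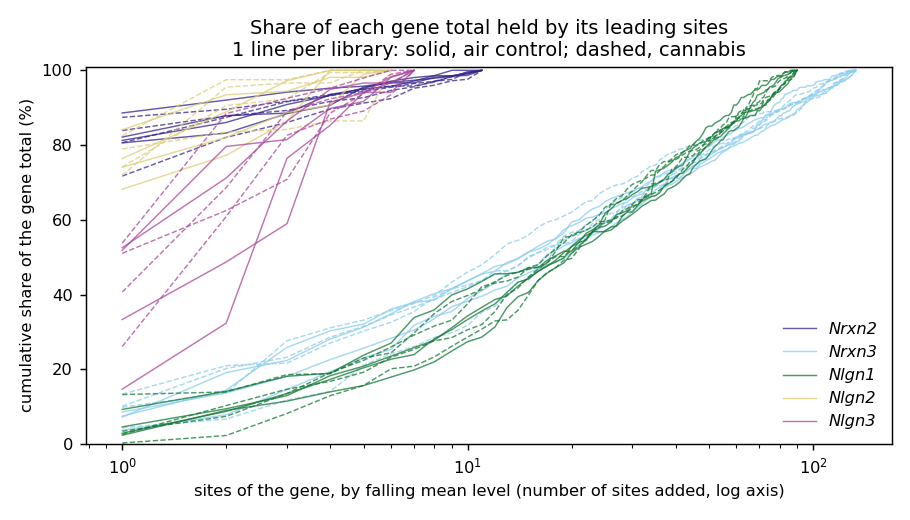
Cumulative share of each gene total (%, vertical axis) as sites are added from the highest to the lowest mean level (number of sites, log axis), with 1 line per library, solid for air control and dashed for cannabis. The first 3 sites held a median of 90.1% of Nrxn2, 93.4% of Nlgn2 and 82.0% of Nlgn3, against 22.0% of Nrxn3 and 13.5% of Nlgn1.

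The paper defines its intronic class of sites without a condition on strand, while its antisense class covers exonic regions. Totals of Nrxn3 and Nlgn1 may therefore include RNA ends from the opposite strand. How many of their sites are of that kind was not tested, because only 2 of the 247 sites had a position in the sources used here. These are Nrxn2 site 1, a distal site that ends the annotated transcript (Rnor_6.0, chr1:221908018-221908473, plus strand), and Nlgn1 site 45, an intronic site (Rnor_6.0, chr2:111781187-111781277, plus strand). RefSeq lists Nlgn1 on the minus strand in a newer assembly than that of the site. By that listing the intronic Nlgn1 site lies on the strand opposite to the gene. Whether the region has the same orientation in both assemblies was not tested.

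Summed over all sites, Nrxn3 had the highest level, followed by Nlgn1, Nrxn2, Nlgn2 and Nlgn3. Reads are meant to come from the 3′ end of an RNA, so these totals of reads were not divided by transcript length. Whether all sites are true RNA ends was not tested, and the order of totals between genes rests on that premise. The mean total over 8 libraries was 1074 normalized counts for Nrxn3, above 98.8% of gene symbols, 551 for Nlgn1 (97.0%), 244 for Nrxn2 (91.6%), 96.8 for Nlgn2 (79.1%) and 79.5 for Nlgn3 (75.5%), where the median gene symbol had 23.5. Nrxn3 was above Nlgn1, and Nlgn1 above Nrxn2, in 8 of 8 libraries without overlap of their ranges. Nrxn2 was above Nlgn2 in 7 of 8 libraries, with overlapping ranges, and Nlgn2 was above Nlgn3 in 4 of 8, so that the last pair did not differ beyond its spread.

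The order changed when only the leading site of each gene was read. Nrxn2 site 1 then came first, at a mean of 201.5 normalized counts, ahead of Nrxn3 site 1 at 87.3 in 7 of 8 libraries. Nlgn2 site 1 followed at 73.4, below Nrxn3 site 1 in 7 of 8 libraries, then Nlgn3 site 1 at 33.2, below Nlgn2 site 1 in 8 of 8. Nlgn1 site 1 was last at 26.3, below Nlgn3 site 1 in 6 of 8 libraries. The ranges of neighbours in this order overlapped. Nlgn1 moved from the second place by total to the fifth by leading site, and Nrxn2 from the third to the first.

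The question put to the genes was whether their RNA ends differed between cannabis-exposed rats and air-treated controls. At the level of gene totals they did not pass the test. None of the 5 genes had p under 0.01 in limma on log2(total + 1), where 0.278% of all 18003 gene symbols did. The study used that threshold for single sites in DESeq2, not for gene totals. None of the 5 had groups that did not overlap, against 1.98% of all gene symbols. On the recovered reads, 0 of the 5 were called by edgeR, which called 0.3% of gene symbols, and 0 by DESeq2, which called 0.422%. In limma 0 of the 5 had an unadjusted p under 0.05, against 2.41% of gene symbols.

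Nrxn3 was at 1215, 1134, 1010 and 963 normalized counts in controls 1 to 4 and at 1075, 1077, 1012 and 1105 in cannabis-exposed rats 1, 2, 3 and 5. The group means were 1080 ± 115 and 1067 ± 39.6 (SD, n = 4 each), and the log2 fold change was -0.01 with a standard error of 0.17 and a 95% interval from -0.39 to 0.36 (limma, p = 0.945, adjusted p = 0.999, exact permutation test, p = 0.886). All 4 cannabis-exposed rats lay inside the range of the controls. A 0.764-fold to 1.29-fold change is thus the range that the interval for this neurexin covers.

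Nrxn2 was at 196, 249, 253 and 278 normalized counts in the controls and at 255, 338, 188 and 193 in the cannabis-exposed rats. The means were nearly equal, 244 ± 34.5 against 243 ± 70.1 (SD, n = 4 each), with a log2 fold change of -0.03 and a 95% interval from -0.53 to 0.46 (limma, p = 0.884, adjusted p = 0.999, exact permutation test, p = 0.943). The cannabis-exposed group held both the highest and the lowest of the 8 values.

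Nlgn1 was at 648, 575, 554 and 493 normalized counts in the controls and at 534, 462, 563 and 579 in the cannabis-exposed rats. The means were 567 ± 64.3 and 534 ± 52.0 (SD, n = 4 each), with a log2 fold change of -0.08 and a 95% interval from -0.48 to 0.31 (limma, p = 0.650, adjusted p = 0.999, exact permutation test, p = 0.457). Control 1 was the highest and cannabis-exposed rat 2 the lowest, and the other 6 rats were interleaved.

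Nlgn2, the neuroligin of inhibitory synapses, varied widely among the controls, at 220.0, 86.2, 71.8 and 43.7 normalized counts, against 49.7, 112.9, 87.6 and 102.2 in the cannabis-exposed rats. The means were 105 ± 78.4 and 88.1 ± 27.6 (SD, n = 4 each), and the log2 fold change was -0.06 with a 95% interval from -0.96 to 0.84 (limma, p = 0.883, adjusted p = 0.999, exact permutation test, p = 0.886). Both the highest and the lowest value were controls. The direction rested on single libraries, since the log2 fold change was 0.37 without control 1 and -0.39 without control 4.

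Nlgn3 was at 85.5, 70.6, 72.5 and 67.5 normalized counts in the controls and at 57.1, 97.6, 94.5 and 90.6 in the cannabis-exposed rats. The means were 74.0 ± 7.93 and 85.0 ± 18.8 (SD, n = 4 each), with a log2 fold change of 0.17 and a 95% interval from -0.35 to 0.69 (limma, p = 0.494, adjusted p = 0.999, exact permutation test, p = 0.371). Of the cannabis-exposed rats 3 were above every control and the other was below every control.

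**Figure D2:**
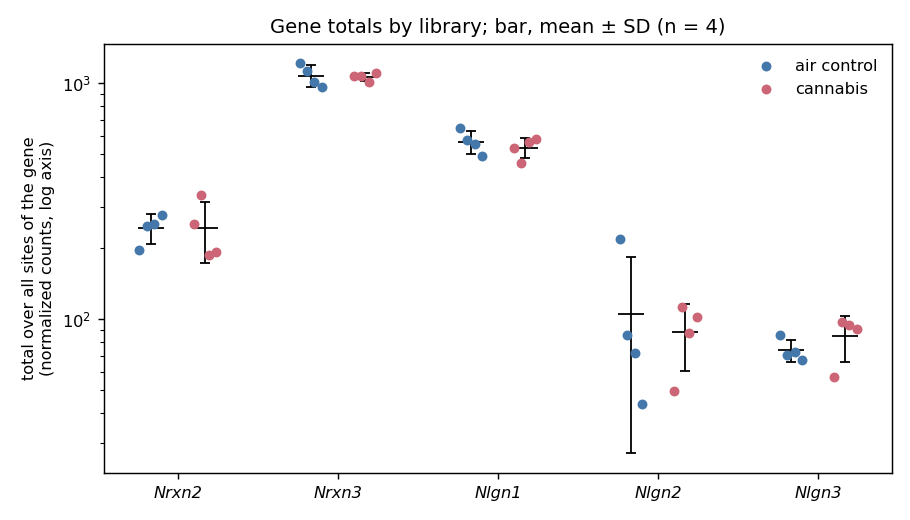
Total of each gene over all its sites in normalized counts (log axis) for each library, blue for air control and red for cannabis, with the mean and SD of each group (n = 4). The groups overlap in all 5 genes, and the widest scatter is that of Nlgn2 in the controls, from 43.7 to 220.0.

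The exact permutation tests were two-sided, and their smallest possible p with 4 against 4 rats is 0.0286. Missing the threshold does not show equal levels, since the 95% intervals still allowed a change of 0.513-fold to 1.79-fold in Nlgn2, 0.692-fold to 1.38-fold in Nrxn2 and 0.783-fold to 1.62-fold in Nlgn3.

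Single sites were then compared in the same way. Of the 247 sites, 127 were lower and 120 higher in the cannabis-exposed rats, with a median log2 fold change of -0.04, while all 98356 sites had a median of 0.01. Only 1 site passed p under 0.01, which is 0.405% of the members against 0.381% of all sites tested. At p under 0.05 there were 4 sites, or 1.62% against 3.03%. In 5 sites, 4 of them lower in cannabis, the groups did not overlap, or 2.02% against 2.0%. The share of called sites was thus close to or under that over all sites, and no site of the 5 genes had an adjusted p under 0.1.

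The called site was Nlgn1 site 45, the intronic site that lies opposite to the gene by the RefSeq strand. It had 11.7, 4.79, 6.04 and 5.96 normalized counts in the controls and 2.48, 0.664, 1.97 and 0.768 in the cannabis-exposed rats, from 16, 4, 9 and 3 reads and 2, 1, 2 and 1 reads. Every control was above every cannabis-exposed rat. The means were 7.12 ± 3.10 and 1.47 ± 0.898 (SD, n = 4 each), and the site fell by 1.72 on the log2(value + 1) scale, with a standard error of 0.56 (limma, p = 0.00551, adjusted p = 1.00, exact permutation test, p = 0.0286). That permutation p is the smallest that 4 against 4 can give. The size of the change depended on the scale, with a log2 fold change of -0.88 at a pseudocount of 5, -2.30 in edgeR and -2.42 in DESeq2, each past the threshold.

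Nlgn1 site 45 held 1.23% ± 0.411 of the Nlgn1 total in the controls and 0.273% ± 0.162 in the cannabis-exposed rats (SD, n = 4 each). The log2 difference of the site against the rest of the gene was -1.65, which did not pass the threshold (limma, p = 0.0121, adjusted p = 1.00, exact permutation test of the shares, p = 0.0286). The call at p under 0.01 was lost in 4 of the 8 fits that each left out 1 library, where the log2 fold change was -1.48 without control 1, -1.77 without control 3, -1.56 without cannabis-exposed rat 2 and -1.59 without cannabis-exposed rat 5. The study lists this site among its own differential sites, chosen on these same samples, so that list is not independent evidence. No Nlgn1 site is in the shorter list that the paper kept after filtration and checks in silico. The summed hypothalamic neuropeptides, of which only Avp and Oxt were called, and the summed thalamic markers also did not overlap between groups. Both sums were higher in cannabis where this site was lower, and their part in the result was not tested.

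**Figure D3:**
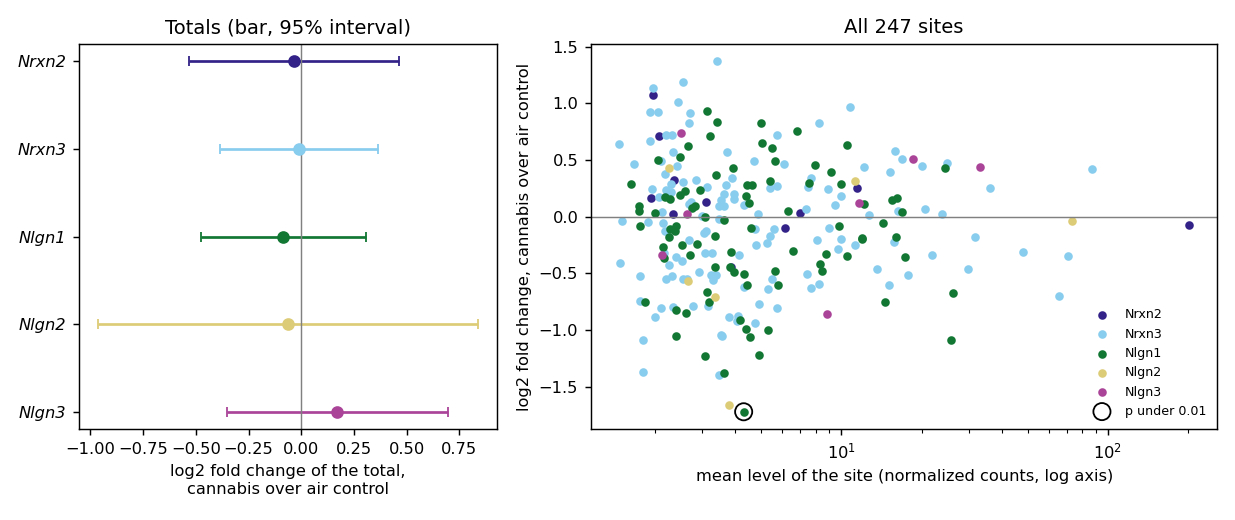
Left, log2 fold change of each gene total, cannabis over air control, with its 95% interval. Right, log2 fold change of each of the 247 sites against its mean level in normalized counts (log axis), colored by gene, with the 1 site at p under 0.01 circled, Nlgn1 site 45 at a log2 fold change of -1.72.

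The other sites near the threshold were also low. Nlgn2 site 3 had 14.6, 7.18, 0.671 and 3.97 normalized counts in the controls and 0, 1.99, 0.984 and 0.768 in the cannabis-exposed rats, and its log2 fold change of -1.67 missed the threshold (limma, p = 0.0243, adjusted p = 1.00, exact permutation test, p = 0.114). Control 3 lay among the cannabis-exposed rats, and without it the site passed, at a log2 fold change of -2.26. Nrxn3 site 73 had the lowest p of the Nrxn3 sites, with 2.19, 5.99, 5.37 and 7.94 normalized counts in the controls and 1.24, 1.99, 2.95 and 0 in the cannabis-exposed rats (log2 fold change -1.40, limma, p = 0.0322, adjusted p = 1.00, exact permutation test, p = 0.0571). The groups overlapped at both sites. In Nrxn2 the lowest p belonged to site 10, at 0 to 1.46 normalized counts in the controls and 0.768 to 4.97 in the cannabis-exposed rats (limma, p = 0.119, adjusted p = 1.00, exact permutation test, p = 0.0857). In Nlgn3 it belonged to site 4, at 5.96 to 27.8 against 2.48 to 16.7 (limma, p = 0.186, adjusted p = 1.00, exact permutation test, p = 0.457).

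The remaining 4 sites whose groups did not overlap were Nrxn3 sites 24, 31 and 53 and Nlgn1 site 52, chosen here after their values were seen. Nrxn3 site 24 was the 1 higher in cannabis, at 9.98 to 19.3 normalized counts against 5.96 to 8.04 in the controls. Nrxn3 site 31 was lower, at 4.65 to 7.45 against 8.04 to 15.9, and so was Nrxn3 site 53, at 2.30 to 3.99 against 4.79 to 8.06. Nlgn1 site 52 was at 0 to 2.95 against 3.97 to 6.04. None of the 4 passed p under 0.01 in limma, and the Nrxn3 sites among them differed in direction.

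Use of a site relative to its gene was read as its share of the gene total. No share of the 247 sites passed p under 0.01 in limma, against 0.466% of the 57287 sites in gene symbols with 2 or more sites. At p under 0.05 there were 2, or 0.810% against 3.27%, and in 4, 3 of them lower in cannabis, the groups did not overlap, or 1.62% against 2.02%. The 2 at p under 0.05 were Nlgn1 site 45 and Nlgn2 site 3. Nlgn2 site 3 held 6.65%, 8.33%, 0.935% and 9.09% of the gene in the controls and 0, 1.76%, 1.12% and 0.752% in the cannabis-exposed rats (limma on the log2 share against the rest, p = 0.0160, adjusted p = 1.00, exact permutation test, p = 0.0857). The 0 rests on 40 reads of Nlgn2 in cannabis-exposed rat 1, and 3 counts, the limit that a count of 0 allows, would be a share of up to 7.50%.

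In the genes with concentrated ends the same site led in every library. Nrxn2 site 1, the distal site, carried 80.6%, 81.2%, 88.6% and 82.1% of the gene in the controls and 83.9%, 87.4%, 80.6% and 71.7% in the cannabis-exposed rats. Within the cannabis-exposed group, 71.7% in rat 5 (95% Wilson interval 65.8% to 76.9%) and 87.4% in rat 2 (84.3% to 90.03%) had intervals that did not meet. The site led in 8 of 8 libraries, and the groups overlapped (exact permutation test of the shares, p = 0.657). Nlgn2 site 1 carried 74.1%, 76.4%, 84.1% and 68.2% in the controls and 82.5%, 74.1%, 71.9% and 78.9% in the cannabis-exposed rats, and it too led in every library. The next sites of both genes were minor, with Nrxn2 site 2 at 2.16% to 10.4%, Nrxn2 site 3 at 0.714% to 5.22% and Nlgn2 site 2 at 4.51% to 23.6%.

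Nlgn3 ends were shared among a few sites. Site 1 carried 33.3%, 52.5%, 51.9% and 14.7% in the controls and 26.1%, 53.7%, 51.0% and 40.7% in the cannabis-exposed rats. Site 2 held 11.5% to 34.8% and site 3 held 1.85% to 44.1%, so that 3 different sites led in 1 library or another. Control 4, with 34 Nlgn3 reads, had site 3 in front, at 44.1% (95% Wilson interval 28.9% to 60.5%). Its share was 1.85% (0.509% to 6.50%) in control 3, so the intervals of controls 3 and 4 did not meet.

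In Nrxn3, whose leading sites each hold a small share, the order of sites changed from rat to rat. Site 1 carried 7.22%, 7.50%, 8.58% and 3.71% in the controls and 4.39%, 9.87%, 10.1% and 13.3% in the cannabis-exposed rats. Site 2 carried 11.9%, 6.97%, 5.12% and 4.12% against 2.31%, 3.82%, 10.1% and 7.64%. Site 3 ranged within the cannabis-exposed group from 0.695% in rat 5 (10 reads, Wilson interval 0.378% to 1.27%) to 13.9% in rat 2 (226 reads, 12.3% to 15.7%). In the controls it ranged from 3.25% to 11.4%, and 4 different sites led over the 8 libraries.

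Nlgn1 site 1 also varied among rats of 1 group. It carried 2.37%, 2.92%, 4.61% and 9.27% of the gene in the controls and 13.3%, 0.288%, 2.62% and 3.45% in the cannabis-exposed rats. Rat 1 had 57 reads there (Wilson interval 10.4% to 16.8%) and rat 2 had 2 reads (0.0790% to 1.04%), while their gene totals were 534 and 462 normalized counts. The level of this site, 70.8 against 1.33 normalized counts in those rats, therefore differed far more than that of the gene. Site 2 went the other way in rat 1, at 0.698% there and 7.69% in cannabis-exposed rat 3, and site 3 stayed between 2.48% and 6.10%.

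**Figure D4:**
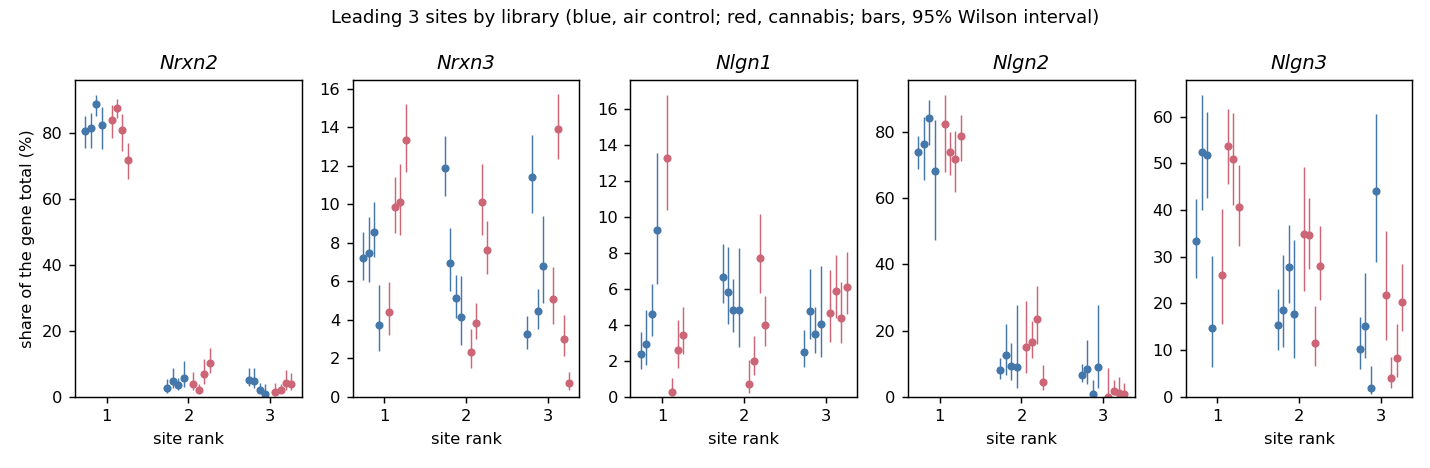
Share of the gene total (%) held by the 3 leading sites of each gene in each library, blue for air control and red for cannabis, with 95% Wilson intervals that cover counting error only, each panel with its own scale from 0. Site 1 of Nrxn2 runs from 71.7% to 87.4% within the cannabis group, and site 1 of Nlgn1 from 0.288% to 13.3%.

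Such gaps were common. Of the 46 sites with a mean of at least 10, 35 (76.1%) had at least 1 group in which the Wilson intervals of the lowest and the highest rat did not meet, 19 in the controls and 31 in the cannabis-exposed rats. Over all 14643 such sites of gene symbols with 2 or more sites, the share was 69.1%. By gene the count was 19 of 24 for Nrxn3, 10 of 15 for Nlgn1, 3 of 3 for Nlgn3, 2 of 2 for Nrxn2 and 1 of 2 for Nlgn2. Reads amplified by PCR without molecular identifiers are not independent molecules, so these intervals cover the counting error of reads only, not of molecules.

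The number of sites with at least 1 read was compared after each library was thinned to 1159811 reads. Nrxn3 then had 105 ± 7.28 sites in the controls and 102 ± 5.30 in the cannabis-exposed rats (SD, n = 4 each; exact permutation test, p = 0.543). Nlgn1 had 73.0 ± 4.26 and 67.8 ± 5.48 (exact permutation test, p = 0.200). Nrxn2 had 8.46 ± 0.524 and 9.22 ± 0.565, Nlgn2 had 4.30 ± 0.915 and 3.51 ± 0.681, and Nlgn3 had 5.81 ± 0.351 and 5.97 ± 0.583, with exact permutation p = 0.114, 0.257 and 0.686. The groups overlapped in all 5 genes.

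Genes that act with neurexins and neuroligins were read in the same fit. Of 45 genes in 4 lists, 43 were found (Lrrtm1 and Lin7c were not). In limma on gene totals 20 were lower and 23 higher in cannabis, 0 of the 43 passed p under 0.01 (0.278% of all gene symbols), 1 had p under 0.05 (2.41%), and 0 had groups without overlap (1.98%). The median log2 fold change was 0.01, against 0.05 over all gene symbols.

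Of 19 extracellular ligands of neurexins, 9 were lower and 10 higher, with a median of 0.01. Clstn3 and Clstn1, calsyntenins of the postsynaptic membrane, had the highest totals of the list, at 1487 ± 555 and 1654 ± 373 for Clstn3 and 1218 ± 252 and 1542 ± 270 for Clstn1 in controls and cannabis-exposed rats (SD, n = 4 each). Of 5 presynaptic scaffold genes, 3 were lower and 2 higher, with a median of -0.09. Apba2, a Mint adaptor, was at 237 ± 25.5 and 226 ± 49.4 normalized counts, and Lin7b, which binds Cask, was at 98.9 ± 12.8 and 81.6 ± 11.2. Neither pair of groups separated.

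Of 11 postsynaptic scaffolds and binding partners of neuroligins, 6 were lower and 5 higher, with a median of -0.03. Dlg2, a PSD-95 family scaffold with 115 sites, was at 715 ± 65.5 and 769 ± 51.2 normalized counts. Of 8 RNA-binding proteins that regulate splicing of these genes, 2 were lower and 6 higher, with a median of 0.14. Rbfox1, with 90 sites, was at 710 ± 37.6 and 713 ± 45.6, and Khdrbs3 was at 277 ± 59.6 and 351 ± 58.8 (SD, n = 4 each).

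The genes whose totals followed each member most closely over the 8 libraries were looked up among 3653 or 3654 other gene symbols with a mean total of at least 100, by Pearson's r of log2(total + 1). These are descriptions over 8 points that share library depth. Each named gene was picked as among the highest of 3653 or 3654 values, and the r that such picking gives by chance was not computed. Sgpp1 (r = 0.914) and Pde8b (0.910) were nearest to Nrxn2, and Dbp (0.903) and Gnpat (0.898) to Nrxn3. Pde4d (0.956) and Rbbp6 (0.920) were nearest to Nlgn1, Dennd6b (0.971) and Dzip1 (0.944) to Nlgn2, and Baalc (0.963) and Cttnbp2nl (0.949) to Nlgn3. Without the 2 libraries farthest from the median of the member, r fell to 0.687 for Gnpat and 0.647 for Rbbp6 and stayed between 0.800 and 0.944 for the other 8 genes. Spearman's rho was between 0.738 and 0.976 for the 10 genes.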

How the data were processed

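WTTS-Seq libraries were made from total RNA of 4 cannabis-exposed and 4 air-treated rats, with groups and replicate numbers taken from the labels. The authors mapped the reads to Rnor_6.0, clustered read ends into sites, dropped any site under 16 reads and gave the rest gene symbols where annotated. The deposited values are a normalized signal, reads per site divided by a DESeq2 size factor, in 1 file per library without pooling. They depend on the clustering and on that scaling. Only the 64313 sites with a gene symbol entered totals.

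All values (100%) were whole multiples of the value of 1 read to within 1.2e-05 reads, so that reads were recovered (tolerance for a whole read, 0.1). The files were joined by row order, since the symbols were the same in every file. Sites, gene totals and shares, log2((site + 1)/(rest of the gene + 1)), were tested over all 98356 sites, 18003 gene symbols and 57287 sites on log2(value + 1), by lmFit and trended eBayes of limma 3.58.1 under R 4.3.3, with no covariate and Benjamini-Hochberg adjustment. The pseudocount of 1 understates changes of low sites. Calls were made at p under 0.01, which the study used for its differential sites, with 0.1 for adjusted p. The methods of the paper also name thresholds of 0.05 on p and 0.1 on adjusted p. Single values had exact two-sided permutation tests (scipy 1.17.1), and shares have 95% Wilson intervals. Intervals and the limit of 3 counts cover counting error only.

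Named were the 5 totals, the 3 leading sites of each gene, each site at p under 0.01 or else the site of lowest p, the 2 highest genes of each partner list and any called, and the 2 genes most alike. For 1 partner gene no values are given here, though list counts contain it. The members and the lists were chosen with earlier results of these data known. Alternatives were a pseudocount of 0.5 or of 5, only features with a mean of at least 10, equal totals, the replicate number as a block, eBayes without trend, each library left out, edgeR 4.0.16 (quasi-likelihood) and DESeq2 1.42.0 on recovered reads, a threshold of 0.05, and other thinning or minimum reads. On recovered reads edgeR called 517 sites and 54 gene totals and DESeq2 called 310 and 76, against 375 and 50 in limma. The fits were tested on simulated data. The comparison of Wilson intervals within groups was chosen after the data were seen. Positions of 2 sites came from tables of the study, matched on symbol and on all 8 values. Chromosomes are numbered in the order of the records there, and strands of genes come from RefSeq on a newer assembly. No sequence is printed.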

Additional observations from a re-analysis of the deposited data

Results flagged for a closer look

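In 8 of 96 groups of 4 rats tested, 1 rat stood apart from the other 3 by more than Dixon's 95% limit. Chance alone gives about 1 in 20 for independent, normally distributed values. These groups share the same libraries, and the level and share of a site are related, so no excess is read from the count. Nlgn3 site 4 was at 27.8 normalized counts in air-treated control 1 against 5.96 to 6.04 in the other controls, and at 16.7 in cannabis-exposed rat 3 against 2.48 to 3.07 in the other cannabis-exposed rats. Its share of Nlgn3 stood apart in the same rats, at 32.5% against 8.33% to 8.82% and at 17.7% against 2.72% to 4.35%. Nlgn3 site 2 was at 20.1 normalized counts in control 3, against 11.9 to 13.2 in the other controls. Nrxn3 site 1 was at 35.7 normalized counts in control 4, the shallowest library, against 85.0 to 87.7 in the other controls. Nrxn2 site 3 was at 3.73 normalized counts in cannabis-exposed rat 1, against 7.31 to 7.87 in the others of its group. Control 1 had 5.66 Nlgn2 sites with a read after thinning, against 3.70 to 4.0 in the other controls, and it also had the highest Nlgn2 total.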

How the results depend on the processing

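No gene total passed p under 0.01 in limma under any alternative run, and signs near 0 turned. With only sites of a mean of at least 10 summed, the log2 fold change was 0.037 for Nrxn3 and 0.040 for Nlgn2. With 1 library left out it ran from -0.21 to 0.075 for Nrxn2, -0.065 to 0.046 for Nrxn3, -0.15 to -0.016 for Nlgn1, -0.39 to 0.37 for Nlgn2 and 0.095 to 0.35 for Nlgn3. The count of lower member sites was 1, and became 0 with a mean of at least 10, which leaves that site untested, 4 at a threshold of 0.05, and 0 to 2 with 1 library left out. The count of lower shares was 0, and became 1 in eBayes without trend, 2 at a threshold of 0.05 and 0 to 1 with 1 library left out. Of partner genes, 0 to 1 were lower with 1 library left out. The difference in sites with a read was 4.50 for Nrxn3 without thinning and -0.481 for Nlgn3 at a minimum of 3 reads.

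For leading sites, edgeR gave 0.0034 for Nrxn2 site 1 and 0.091 for Nlgn1 site 1, and DESeq2 gave 0.049 for Nlgn1 site 1. The share of Nlgn2 site 1 gave -0.36 against sites with a mean of at least 10. With 1 library left out, levels ran from -0.29 to 0.078 for Nrxn2 site 1, -1.42 to 0.23 for Nlgn1 site 1 and -0.42 to 0.39 for Nlgn2 site 1, and shares from -0.40 to 0.081 for Nrxn2 site 1, -1.37 to 0.27 for Nlgn1 site 1, -0.12 to 0.30 for Nlgn2 site 1 and -0.18 to 0.70 for Nlgn3 site 1. The cause of these turns was not tested.

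Whether the replicate numbers pair the rats is not known. Deviations of same-numbered rats correlated at -0.230 to 0.0803 over 3 pairs. Those of differently numbered rats correlated at -0.347 to 0.469 over 13 pairs. So few same-numbered pairs cannot decide the question. With the replicate number as a block, which keeps 3 pairs, 0 member sites were called, and Nlgn1 site 45, at a log2 fold change of -1.64, no longer passed. The Nrxn2 total was then at 0.13. Levels under the block were 0.14 for Nrxn2 site 1, -0.11 for Nrxn3 site 1 and -0.018 for Nlgn3 site 1, and their shares were 0.039, -0.019 and -0.15, with -0.18 for the share of Nlgn2 site 1. Depth limits what can be read from sites with few reads, such as the 1 to 16 reads of Nlgn1 site 45. Over all features, calls in limma numbered 375 sites, 50 gene totals and 267 shares. They became 44, 29 and 45 with a mean of at least 10, which tests fewer features, 229, 24 and 147 with the block, and 227 to 617, 30 to 90 and 175 to 414 with 1 library left out. Gene totals called were 98 in eBayes without trend, 21 with only sites of a mean of at least 10 summed and 76 in DESeq2. Shares called were 170 with a pseudocount of 5 and 26 against sites with a mean of at least 10.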
